A study of Drosophila melanogaster with 6 samples.

Results

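The 6 testis RNA libraries of the study were ordered by the share of raw counts on genes whose symbol is Acp or Sfp followed by a digit, and the 3 highest were compared with the 3 lowest. The 3 gland-rich libraries were overexpression 3, control 1 and control 3, and the 3 gland-poor libraries were overexpression 2, overexpression 1 and control 2. The rule therefore took 3 of 6 libraries into each class, with both genotypes in both classes. The classes were chosen by the shares themselves, which are measured values, so every difference between the classes is given as a description of these 6 libraries, without a test.

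In the study, testes were dissected and pooled from adult flies aged 3 to 5 days, from crosses made at 28 °C. The overexpression flies were act5C-Gal4>UAS-miR-2b-1, in which the ubiquitous Act5C driver switches on a UASp transgene of the microRNA miR-2b-1. The control flies were act5C-Gal4>w1118, with the driver and without the transgene, so both genotypes carried the driver. The data description of the study names OreR as the control strain in place of w1118. The parental strain and the transgene differ together between the genotypes and cannot be told apart. Each replicate was a pool of testes, with no label tying pools to separate cultures, and p-values measure the spread between these pools. The gene mir-2b-1 had 0 counts in all 6 libraries and gave no check of the labels.

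The accessory glands of the male fly are paired secretory glands that open into the ejaculatory duct beside the seminal vesicles of the testes. They make most proteins of the seminal fluid, among them the Acp (accessory gland protein) and Sfp (seminal fluid protein) genes, which change egg laying, sperm storage and receptivity of mated females. The ejaculatory duct adds its own proteins, and the ejaculatory bulb, further along the tract, supplies proteins of the mating plug. In dissection the testes have to be separated from these organs. In bulk RNA, fewer cells of a type and less RNA per cell cannot be told apart.

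The share of counts on the 47 Acp and Sfp genes was 1.10% in overexpression 3, 0.999% in control 1 and 0.605% in control 3, against 0.131% in overexpression 2, 0.0478% in overexpression 1 and 0.0180% in control 2. Control 3 was the library just inside the gland-rich class and overexpression 2 the one just outside it, 4.6-fold apart. The highest share was 61.1 times the lowest. Within the overexpression libraries the highest was 23.1 times the lowest, and within the control libraries 55.4 times. The 95% Wilson interval of the lowest share, that of control 2, ran from 0.0175% to 0.0186%, an interval that covers counting error alone. The total count on genes ranged from 18047619 to 27789620 per library. The rule did not use the genotype. The share averaged 0.427% ± 0.587 in overexpression and 0.541% ± 0.494 in control (SD, n = 3 each). The exact two-sided permutation test of this difference gave p = 1, where 3 libraries against 3 can go no lower than p = 0.1. The SD within each genotype was larger than the difference between the means. Principal components were taken over the genes above a minimum total count. The first, with 52.4% of the variance, separated the gland classes, and the second, with 26.3%, separated the genotypes.

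**Figure D1:**
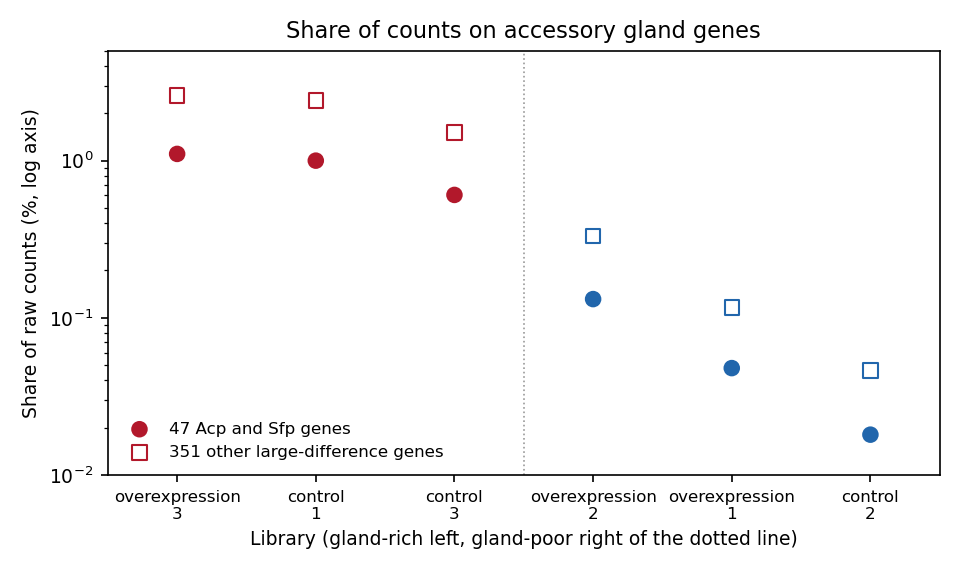
Share of raw counts (percent, log axis) in each library, with gland-rich libraries in red and gland-poor libraries in blue. Filled circles are the 47 Acp and Sfp genes that set the classes (1.10% in overexpression 3 and 0.0180% in control 2), and open squares are the 351 other genes with a large difference, which follow the same order.

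The 3 marker genes of the gland followed the classes closely. Acp36DE (chromosome 2L, 18356047 to 18359028), a glycoprotein needed for sperm storage, had 2287, 2401 and 1501 CPM in gland-rich overexpression 3, control 1 and control 3, against 173, 74.7 and 52.6 CPM in gland-poor overexpression 2, overexpression 1 and control 2. CPM values here and below are counts relative to library size, scaled by the TMM method. The fitted log2 difference of Acp36DE was 4.70 ± 0.62 (gland-rich minus gland-poor with genotype in the model, standard error, n = 3 each). Acp26Aa (2L, 5892883 to 5893896), which encodes ovulin, a stimulator of ovulation, had 751, 661 and 443 CPM in these gland-rich libraries, against 95.1, 32.7 and 13 CPM in the gland-poor ones, with a log2 difference of 4.44 ± 0.88. Acp62F (3L, 2739750 to 2740228), a protease inhibitor, had 721, 735 and 421 CPM in gland-rich libraries, against 115, 47.0 and 8.74 CPM in gland-poor libraries, with a log2 difference of 4.52 ± 1.14. None of the 3 genes was at 0 in a gland-poor library. These libraries were poorer in gland transcripts and not free of them.

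Across the 47 Acp and Sfp genes, 46 had at least 10 counts over the 6 libraries and 1, Acp95EF, had none. The annotated span of Acp95EF lies within that of Spase22-23. The strand setting of the counting is not stated, so its lack of counts does not show a lack of RNA. The gland-rich libraries lay above the gland-poor ones without overlap for 36 of the 46, beside 9.36% of the 14258 genes with at least 10 counts in all, and for 0 of the 46 they lay below, beside 5.87%. The rule used these counts, and nothing is read from that contrast. The median log2 difference over the 46 was 4.27, beside -0.01 over the 14258. Acp1 and Acp65Aa share the letters but encode adult cuticle proteins, and they were at or below 0.659 CPM in every library. Of the abundant members, 3 lay in one stretch of 2R, where Acp53C14a (16747834 to 16748590), Acp53C14b (16748815 to 16749460) and Acp53Ea (16749803 to 16750335) follow one another. Acp53C14b had 1119, 1037 and 768 CPM in gland-rich overexpression 3, control 1 and control 3, against 140, 54.3 and 19.0 CPM in gland-poor overexpression 2, overexpression 1 and control 2. Its neighbours Acp53C14a and Acp53Ea had log2 differences of 4.60 and 4.52, and 2 further abundant members, Acp76A and Acp33A, had 4.85 and 4.82.

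The order of the libraries within a class was set by the sum of the Acp and Sfp genes, so that nothing is read from its being shared by most of them. Overexpression 2 lay above overexpression 1, and overexpression 1 above control 2, for 37 of the 46 genes (80.4%), beside 16.1% of the 14258 genes. Control 3 was the lowest of the gland-rich libraries for 36 of the 46 (78.3%), beside 41.9% of the 14258. Of the 351 genes with other symbols and a large difference, described further on, 256 (72.9%) had the same order among the gland-poor libraries and 280 (79.8%) were lowest in control 3 among the gland-rich ones.

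Over the members with at least 10 counts in every library, the makeup of the gland transcripts differed far less than their total. Of every 1000 counts on Acp and Sfp genes, Acp26Aa took 70.3 in overexpression 3, 66.7 in control 1 and 67.4 in control 3, against 74.9 in overexpression 2, 71.9 in overexpression 1 and 69.1 in control 2. The share of Acp26Aa within the gland counts was thus close to 70 per 1000 in each library, while the total varied by 61.1-fold. Acp36DE took 214, 242 and 228 per 1000 in the gland-rich libraries in that order, against 136, 164 and 280 in the gland-poor ones, so overexpression 2 and overexpression 1 lay lowest and control 2 highest. Acp62F ran the other way among the gland-poor libraries, with 67.4, 74.2 and 64.0 per 1000 in gland-rich libraries, against 90.8, 103 and 46.5 in gland-poor overexpression 2, overexpression 1 and control 2. Over the 29 members with at least 10 counts in every library, the log2 shares of any pair of libraries correlated across genes. Pearson's r lay between 0.901 and 0.985 in 15 pairs, a description in which the members are not independent. Of these 29, Acp54A1 varied most, with shares that differed 18.1-fold between libraries and were lowest in control 1. Some members with fewer counts in a library varied more. Sfp87B took 0.00554 per 1000 in control 1, 23.5 in control 2 and 17.2 in overexpression 3, on 1, 86 and 5285 counts.

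Genes of the seminal fluid that carry other symbols, which the rule did not use, showed the same pattern. The 30 genes of the wider seminal fluid list with at least 10 counts had a median log2 difference of 4.15, with 26 higher and 0 lower without overlap, beside 9.36% and 5.87% of all genes. Mst57Da, a male-specific transcript of the gland, had 1798, 1775 and 1117 CPM in gland-rich overexpression 3, control 1 and control 3, against 254, 91.3 and 31.9 CPM in gland-poor overexpression 2, overexpression 1 and control 2. CG17097, a predicted lipase, had 2221, 2073 and 1559 CPM in gland-rich libraries, against 125, 38.6 and 47.4 CPM in gland-poor libraries, and a log2 difference of 5.01 ± 0.68. Its neighbour CG31872, likewise a predicted lipase, had 4.98 ± 0.63, and msopa had 4.54 ± 0.90. With this list and the sex peptide network added to the rule, the libraries kept their classes, though that share still contains the counts of the rule.

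The sex peptide network is a set of seminal proteins and female factors through which sex peptide binds to sperm and acts for days after mating. SP (3L, 13301635 to 13301922), sex peptide itself, which lowers receptivity and raises egg laying, had 208, 183 and 167 CPM in gland-rich overexpression 3, control 1 and control 3, against 37.4, 10.5 and 2.57 CPM in gland-poor overexpression 2, overexpression 1 and control 2. Its log2 difference was 4.39 ± 1.17. The male proteins that load sex peptide onto sperm followed, with 3.79 ± 0.67 for the cysteine-rich secretory protein CG17575, 4.36 ± 0.98 for lectin-46Ca and 4.37 ± 0.86 for aqrs. Of the 14 members, 10 were higher without overlap and 1, SPR, was lower, beside 9.36% and 5.87% of all genes. SPR, the receptor of sex peptide in females, stayed below 1 CPM in all libraries, so its difference rests on few counts.

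**Figure D2:**
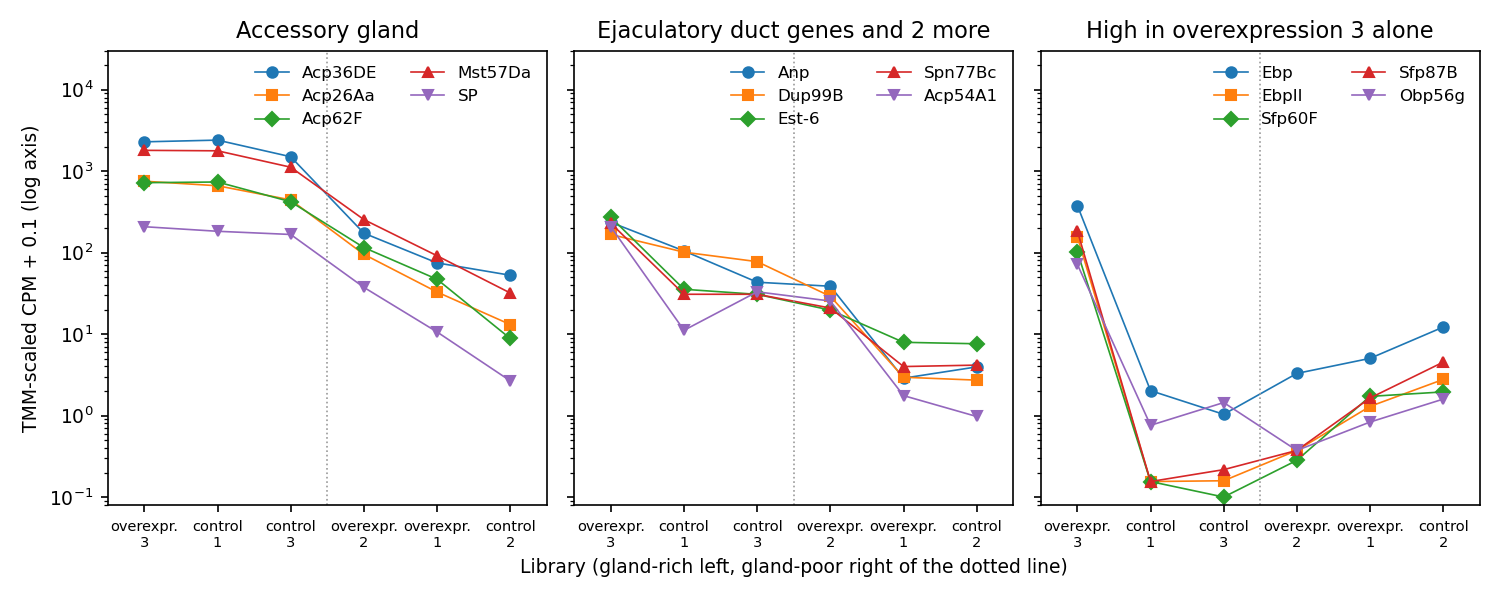
TMM-scaled CPM plus 0.1 (log axis) of 15 genes in each library, gland-rich libraries left and gland-poor libraries right of the dotted line. Accessory gland genes fall off in steps over the libraries, duct genes and 2 genes with a like pattern are highest in overexpression 3, and Ebp, EbpII, Sfp60F, Sfp87B and Obp56g are high in overexpression 3 alone.

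Genes of the ejaculatory duct also differed, with nearly the same order of the libraries but another spacing. Anp, which encodes andropin, an antibacterial peptide of the duct, had 235, 105 and 43.2 CPM in gland-rich overexpression 3, control 1 and control 3, against 38.5, 2.78 and 3.85 CPM in gland-poor overexpression 2, overexpression 1 and control 2. Dup99B, a duct peptide related to sex peptide, had 167, 101 and 77.3 CPM in gland-rich libraries, against 29.0, 2.85 and 2.62 CPM in gland-poor libraries. Est-6, an esterase passed to females in the ejaculate, had 271, 35.4 and 30.6 CPM in gland-rich libraries, against 19.6, 7.82 and 7.50 CPM in gland-poor libraries. The classes did not overlap for these 3 genes, but overexpression 3 stood well above control 1 and control 3. For each of them overexpression 2 lay closer, on a log scale, to control 3 than to overexpression 1. Gld, of the same list, overlapped, with 26.3, 22.3 and 4.85 CPM in gland-rich libraries, against 5.01, 4.12 and 3.08 CPM in gland-poor libraries. Its level in overexpression 3 was close to that in control 1. Acp54A1 was likewise highest in overexpression 3 but had an order of its own and overlapped between the classes, with 207, 11.0 and 32.9 CPM in gland-rich libraries, against 25.3, 1.66 and 0.874 CPM in gland-poor libraries. The serpin gene Spn77Bc had 228, 30.7 and 30.7 CPM in gland-rich libraries, against 20.8, 3.89 and 4.06 CPM in gland-poor libraries. Control 1 lay below control 3 and below gland-poor overexpression 2 for Acp54A1. Est-6, Gld, Acp54A1 and Spn77Bc were chosen after their values were seen. Over the 8 genes of the duct and bulb list, the median log2 difference was 2.83, with 3 higher without overlap (beside 9.36% of all genes) and 5 overlapping. The median was 3.41 within the overexpression libraries and 1.01 within the control libraries, and it was 1.09 without overexpression 3, so that most of the list's difference rested on this library.

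Genes of the ejaculatory bulb, and several Sfp genes with the same order, were high in overexpression 3 alone. Ebp, a protein of the posterior mating plug, had 378, 1.92 and 0.935 CPM in gland-rich overexpression 3, control 1 and control 3, against 3.19, 4.93 and 12.1 CPM in gland-poor overexpression 2, overexpression 1 and control 2. EbpII had 156, 0.0549 and 0.0584 CPM in gland-rich libraries, against 0.273, 1.19 and 2.67 CPM in gland-poor libraries. Among the control libraries both were therefore higher in the gland-poor control 2 than in the gland-rich control 1 and control 3, the reverse of the overexpression libraries. The genes lie side by side with Sfp60F on 2R, with Sfp60F from 25172245 to 25172695, EbpII from 25173568 to 25174230 and Ebp from 25175126 to 25176715. Sfp60F had 102, 0.0549 and 0 CPM in gland-rich libraries, against 0.182, 1.62 and 1.85 CPM in gland-poor libraries. Sfp87B on 3R had 184, 0.0549 and 0.117 CPM in gland-rich libraries, against 0.273, 1.54 and 4.42 CPM in gland-poor libraries. Obp56g, an odorant-binding protein gene of the bulb that is needed for the mating plug, had 71.6, 0.659 and 1.34 CPM in gland-rich libraries, against 0.273, 0.732 and 1.49 CPM in gland-poor libraries. EbpIII, which keeps the name of the bulb but is used in many tissues, did not share this pattern, with 256, 190 and 162 CPM in gland-rich libraries, against 142, 141 and 171 CPM in gland-poor libraries. Elo68alpha, a fatty acid elongase gene of the bulb, was at 3.94 CPM in overexpression 3 and below 0.4 CPM in the other 5 libraries.

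Overexpression 3 was the library with the most such genes. There, 15 genes reached at least 10 CPM and at least 5 times the level of every other library. Control 2 had 1 such gene, Cyp4g1, a cytochrome P450 of hydrocarbon synthesis in oenocytes, with 64.2 CPM, and the other 4 libraries had 0. Sfp24Bb and Acp24A4 on 2L were among them, with 35.1 and 30.5 CPM in overexpression 3 and less than 1 CPM in each of the other 5 libraries. Thus 3 patterns over the libraries were seen in named genes of the male tract. These were that of the gland, that of the duct genes Anp, Dup99B and Est-6, and that of the bulb. The patterns of gland and duct differed in spacing more than in order.

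Across all genes the median difference was -0.01 and small differences ran both ways, while large ones were mostly higher in gland-rich libraries. Genes higher in gland-rich libraries without overlap and with a fitted log2 difference of at least 1 numbered 711, while 64 were lower by at least as much. At a log2 difference of at least 3 without overlap there were 386 higher genes (2.71% of 14258) and 4 lower ones (0.0281%). The 4, Or92a, CG14416, CG31104 and MtnD, had 14 to 47 counts over the 6 libraries together. The 386 are called large-difference genes here. They took 3.63% of all counts in overexpression 3, 3.40% in control 1 and 2.11% in control 3, against 0.458% in overexpression 2, 0.164% in overexpression 1 and 0.0633% in control 2. The Acp and Sfp genes were 35 of them, 351 had other symbols and 314 were in none of the lists used here. In 51 of the 386 no gland-poor library had more than 3 counts, and the fitted difference of these depends on the prior count. As a description of these libraries, and not as a test, since the same counts set the classes, the edgeR fit put 371 genes under an adjusted p of 0.05 for the class, 370 higher (2.11% of 17559 genes) and 1 lower, CG10514 (0.0057%), and 154 of the 386 were among them. The 371 became 204 without overexpression 1, 222 without overexpression 3 and 602 without control 3, while the 386 stayed between 350 and 440 under each omission.

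Within each genotype, which uses separate libraries, the large-difference genes had a median difference of 2.77 in overexpression (replicate 3 minus the mean of 1 and 2) and of 3.56 in control (the mean of 1 and 3 minus replicate 2), on the log2 scale of CPM + 0.5. Over the 11483 genes with a mean of at least 1 CPM, the differences within the genotypes correlated across genes with r = 0.766. Without the large-difference genes r was 0.420 over 11181 genes. These values describe genes of the same 6 libraries, ordered by the rule, and genes are not independent replicates.

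**Figure D3:**
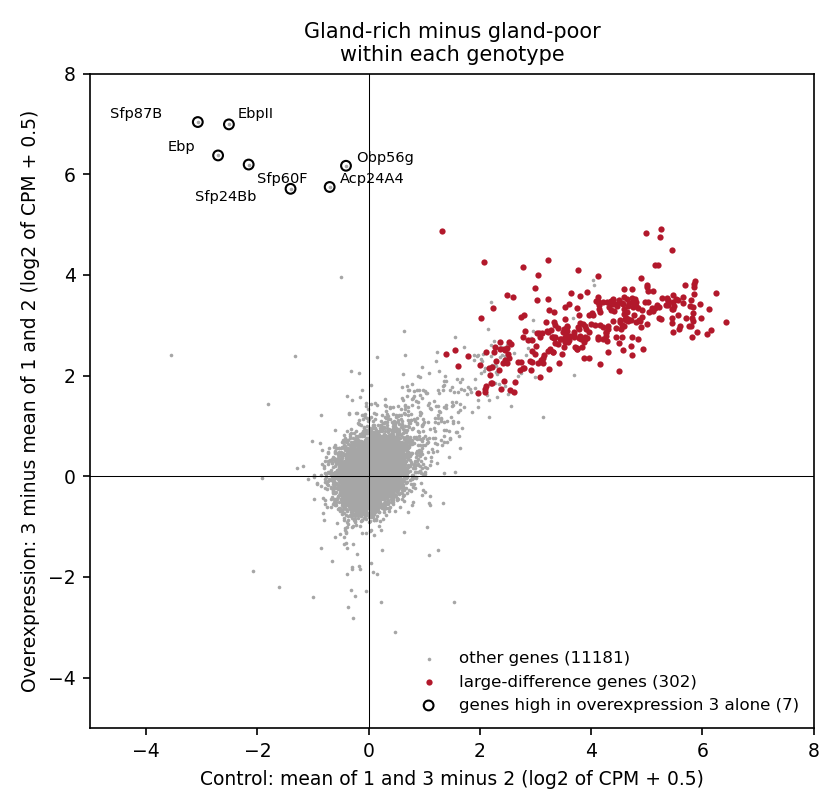
Difference between gland-rich and gland-poor libraries within control (x axis) and within overexpression (y axis), log2 of CPM + 0.5, for genes with a mean of at least 1 CPM. The 302 large-difference genes above this level lie in the upper right, and 7 genes that are high in overexpression 3 alone lie apart at the upper left.

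The 12 genes named outside the lists had the largest differences there at a mean of at least 10 CPM without overlap. They included 3 that lie beside other gland genes. CG15635 (2L, 4642972 to 4646562) had 159, 128 and 96.1 CPM in gland-rich overexpression 3, control 1 and control 3, against 7.06, 3.08 and 3.03 CPM in gland-poor overexpression 2, overexpression 1 and control 2, with a log2 difference of 5.08 ± 0.37. BG642163, which lies beside it (4641296 to 4642872), had 412, 412 and 265 CPM in gland-rich libraries, against 31.6, 12.3 and 9.05 CPM in gland-poor libraries. CG43147 (3L, 13299841 to 13300152), next to SP, reached 1875, 1888 and 1463 CPM in gland-rich libraries, against 280, 67.5 and 26.6 CPM in gland-poor libraries. CG43147 reached the level of the most abundant Acp genes, and the classes lay far apart for all 3. The enzymes among the 12 named genes were Qsox2, a sulfhydryl oxidase that forms disulfide bonds, with a log2 difference of 4.78 ± 0.90, the lysozyme LysE with 4.59 ± 0.51, the glutathione peroxidase-like Gpxl with 4.54 ± 0.57 and the UDP-glycosyltransferase Ugt50B3 with 4.53 ± 1.01. The other 5, CG43788, CG43267, CG31680, CG3640 and CG31883, had log2 differences between 4.51 and 4.81.

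By family, counted in full, the large-difference genes were spread unevenly. They held all 3 Mst57D and all 3 BG642 genes, 6 of 10 C-type lectins named lectin-, 3 of 4 quiescin sulfhydryl oxidases and 3 of 8 prolyl 4-hydroxylase alpha subunits, which modify secreted proteins. They held 8 of 26 serpins, a family of protease inhibitors, and 6 of 39 odorant-binding protein genes, beside 2.71% of all genes. Also among them were 2 of 6 lysozymes, 1 of 8 cathepsins and 2 of 27 UDP-glycosyltransferases. Of these 27, 6 were higher and 3 lower without overlap, beside 9.36% and 5.87% of all genes. The families were chosen with the differences in view, so their counts are a description.

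Noncoding genes made up 123 of the 386, or 31.9%, beside 11.4% of the genes with at least 10 counts, and protein-coding genes 67.6%, beside 85.9%. The most abundant was lncRNA:CR44389 (2R, 17188796 to 17189095), with 290, 320 and 229 CPM in gland-rich overexpression 3, control 1 and control 3, against 66.7, 14.3 and 3.55 CPM in gland-poor overexpression 2, overexpression 1 and control 2. It was followed by lncRNA:CR43239, with 154, 234 and 106 CPM in gland-rich libraries, against 35.5, 9.02 and 2.52 CPM in gland-poor libraries. Both were chosen after their values were seen, and a role of either is not given here. Most of the noncoding genes were scarce, with 6 of the 123 at a mean of at least 10 CPM. The annotated span of 51 of the 123, and of 136 of all 386, overlaps that of another gene. The strand setting of the counting is not stated, so the reads of these and of their partners cannot be told apart. The 386 genes were short, with a median exon length of 691 bases, beside 1635.5 bases over the genes with at least 10 counts.

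The large-difference genes were not spread evenly over the genome. Arm 2L held 31.3% of them, beside 19.4% of the genes with at least 10 counts, and the X chromosome held 5.44%, beside 14.7%. On the Y chromosome 0 of 32 genes with at least 10 counts were among them, beside 2.71% of all such genes. With 32 genes, nothing is read from this count. Of the 386, 214 (55.4%) lay within 5000 bases of another of the 386, as in the stretches of Acp53 and of SP with CG43147 above. Of the other 13872 genes with at least 10 counts, 584 (4.21%) lay as near to one of the 386.

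The machinery of secretion differed in the same direction by small amounts. The secretory pathway moves new proteins through the endoplasmic reticulum and Golgi, and gland cells use it heavily. Of its 59 listed genes with at least 10 counts, 29 were higher and 1 lower without overlap, beside 9.36% and 5.87% of all genes, with a median log2 difference of 0.41. Their summed level was 4977 to 6594 CPM in gland-rich libraries, against 4012 to 4481 CPM in gland-poor libraries. Calr, the chaperone calreticulin, had 391, 553 and 347 CPM in gland-rich overexpression 3, control 1 and control 3, against 210, 201 and 171 CPM in gland-poor overexpression 2, overexpression 1 and control 2. Hsc70-3, the chaperone BiP of the endoplasmic reticulum, had 364, 568 and 299 CPM in gland-rich libraries, against 199, 236 and 157 CPM in gland-poor libraries, with a log2 difference of 1.10 ± 0.33. The same classes lay apart for Gp93, a further chaperone of that compartment, at 1.21 ± 0.24, and for TRAM, a protein of the translocation channel, at 1.26 ± 0.19, both chosen after their values were seen. Cnx99A, calnexin, overlapped between the classes, with 0.14 ± 0.14. Every gland-rich library lay above every gland-poor one in the summed level of this list.

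Of 14 regulators of gland development, 4 were higher and 0 lower without overlap, beside 9.36% and 5.87% of all genes. prd (2L, 12082995 to 12085827), a homeodomain factor needed for the accessory glands to form, had 49.8, 37.6 and 35.3 CPM in gland-rich overexpression 3, control 1 and control 3, against 28.2, 33.5 and 13.9 CPM in gland-poor overexpression 2, overexpression 1 and control 2. CrebA, an activator of secretory pathway genes, had 26.2, 36.1 and 18.1 CPM in gland-rich libraries, against 11.8, 12.6 and 10.3 CPM in gland-poor libraries. The remaining pair, Abd-B, which the secondary cells of the gland need, and dve, had log2 differences of 0.78 ± 0.30 and 1.95 ± 0.37 at 1.70 to 5.93 and 0.514 to 3.28 CPM. Hr39 and abd-A overlapped between the classes, with log2 differences of -0.03 and 0.08. The differences of prd and CrebA, 1.03 and 1.24, were far below those of the seminal fluid genes.

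Of 87 ribosomal protein genes, 22 were higher and 0 lower without overlap, beside 9.36% and 5.87% of all genes, with a median log2 difference of 0.40. Their summed level overlapped between the classes, at 14884 to 21127 CPM in gland-rich libraries and 12748 to 15827 CPM in gland-poor libraries. RpLP2, a protein of the ribosomal stalk, had 707, 610 and 628 CPM in gland-rich overexpression 3, control 1 and control 3, against 521, 393 and 544 CPM in gland-poor overexpression 2, overexpression 1 and control 2. The most abundant member, RpL41, overlapped, with a log2 difference of -0.02 ± 0.18.

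Germline genes were high in all 6 libraries and differed little. The spermatocyte gene betaTub85D, the testis-specific beta tubulin, had 2761, 2643 and 3233 CPM in gland-rich overexpression 3, control 1 and control 3, against 2694, 2862 and 3138 CPM in gland-poor overexpression 2, overexpression 1 and control 2. S-Lap1, a leucyl aminopeptidase of the sperm, had 6043, 6741 and 8599 CPM in gland-rich libraries, against 7399, 7882 and 8475 CPM in gland-poor libraries. The classes overlapped for both, and each library held abundant germline transcripts, as its testis label requires. The median log2 difference was -0.16 over 32 spermatocyte genes, with 0 higher and 7 lower without overlap, and -0.11 over 38 genes of the sperm tail and chromatin, with 0 higher and 4 lower. It was -0.30 over 20 genes of spermatogonia and stem cells, with 1 higher and 4 lower. Over all genes 9.36% were higher and 5.87% lower without overlap. The summed level of the spermatogonia and stem cell genes was 545 to 560 CPM in gland-rich libraries, against 574 to 702 CPM in gland-poor libraries. Their median was -0.03 within the control libraries and -0.41 within the overexpression libraries. The 4 lower genes, krimp, stai, tut and zuc, were below 0 within both genotypes. They had -0.43, -0.15, -0.47 and -0.54 within control, and -0.59, -0.32, -0.25 and -0.18 within overexpression. The part of these levels in the differences of the gland genes was not tested.

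The genes named as lower in gland-rich libraries had small differences. CG13096, the furthest of them at a mean of at least 10 CPM, had 18.2, 21.3 and 16.9 CPM in gland-rich overexpression 3, control 1 and control 3, against 30.6, 38.5 and 22.8 CPM in gland-poor overexpression 2, overexpression 1 and control 2, with a log2 difference of -0.60 ± 0.20. The mismatch repair gene Pms2 had -0.55 ± 0.19, the centromere protein gene Cenp-C -0.53 ± 0.19 and pasha, a cofactor of Drosha in microRNA processing, -0.55 ± 0.20. The other 4, the annealing helicase gene Marcal1, the deacetylase gene Sirt7, CG15056 and Nab2, which binds poly(A) tails, lay between -0.58 and -0.51. In all 8 the classes did not overlap, and in each the difference within overexpression was the larger one.

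Markers of other tissues that a dissection could carry had list medians of 0.21 or less. The median log2 difference was 0.07 over 35 muscle genes (3 higher and 0 lower without overlap), 0.03 over 26 fat body and hemolymph genes (2 and 0), 0.21 over 15 hemocyte genes (2 and 0), 0.02 over 24 neuron genes (0 and 1) and 0.05 over 32 genes of cyst cells and hub (3 and 1), beside 9.36% and 5.87% of all genes without overlap. The summed muscle level was 1679 to 2070 CPM in gland-rich libraries and 1679 to 1964 CPM in gland-poor libraries. The summed fat body level was 1026 to 1243 CPM in gland-rich libraries and 765 to 1191 CPM in gland-poor libraries. Single genes of the fat body and hemolymph list had log2 differences from -0.86 to 3.97. Of the 2 higher hemocyte genes, atilla had 28.2, 27.2 and 14.0 CPM in gland-rich overexpression 3, control 1 and control 3. It had 4.83, 2.66 and 6.68 CPM in gland-poor overexpression 2, overexpression 1 and control 2. The plasmatocyte gene crq, a scavenger receptor, overlapped, with a log2 difference of -0.02 ± 0.17.

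**Figure D4:**
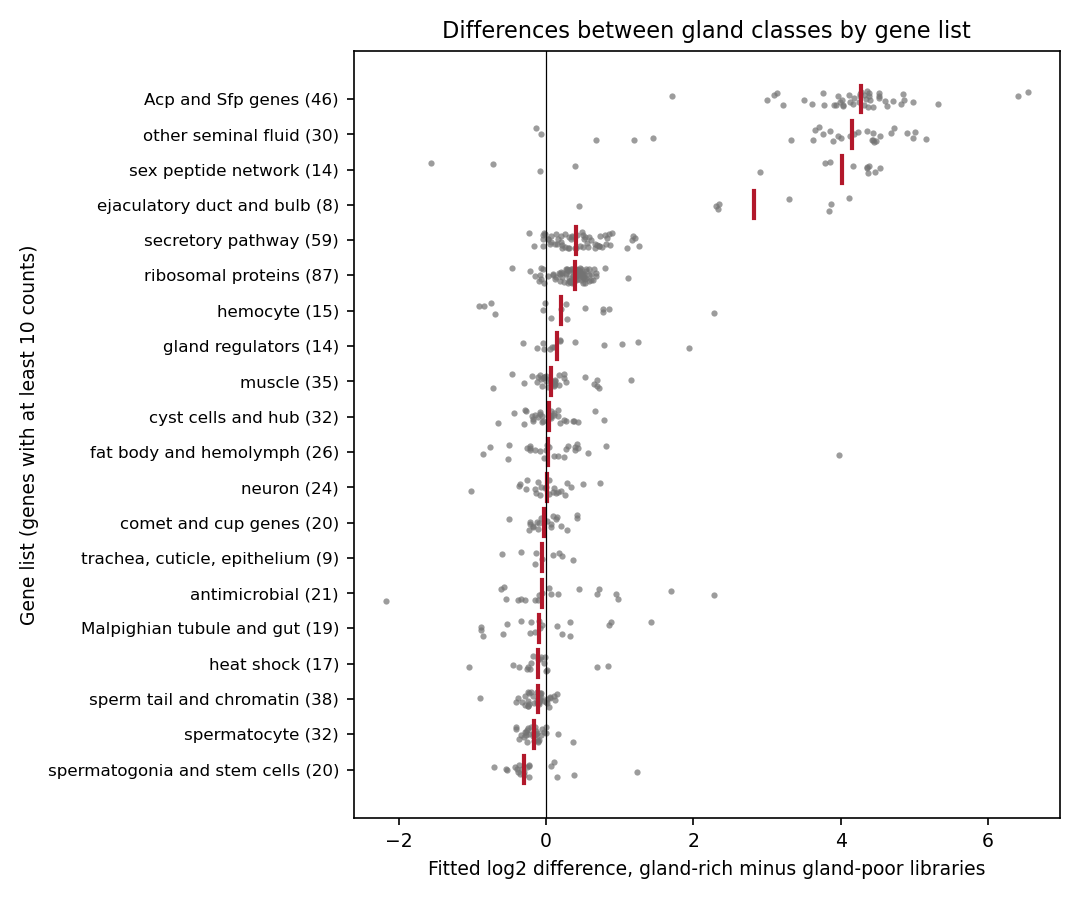
Fitted log2 difference between gland-rich and gland-poor libraries for each gene (grey points) of 20 lists, with the number of genes with at least 10 counts in parentheses and the median as a red line. The seminal fluid lists lie near a log2 difference of 4, the duct and bulb list is at 2.83, and the medians of all other lists lie between -0.30 and 0.41.

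The comparison of the genotypes was not used by the rule and was tested with the gland class in the model. The class does not level the gland share between genotypes. Among gland-rich libraries the share was 1.10% in overexpression 3, above 0.999% in control 1 and 0.605% in control 3. Among gland-poor libraries it was 0.131% in overexpression 2 and 0.0478% in overexpression 1, above 0.0180% in control 2. For genes that follow the gland share, a genotype difference cannot be told apart from this remainder. The effect of miR-2b-1 overexpression on the testis was the purpose of the study. With the class in the model, edgeR's quasi-likelihood test called 500 of 17559 genes between overexpression and control at a Benjamini-Hochberg adjusted p under 0.05 (2.85%), of which 225 rose (1.28%) and 275 fell (1.57%) in overexpression. With genotype alone it called 493 (2.81%), of which 1.29% of all genes rose and 1.51% fell, and 423 genes were called by both, 84.6% of the calls with the class and 85.8% of those without. Thus 77 genes were called only with the class and 70 only without it. The simulated data showed more false calls than the nominal share for this unfiltered test. With 200 genes changed by 1 on the log2 scale, it called 121 changed and 57 unchanged genes, or 193 and 69 at a change of 2. With the filterByExpr filter these were 102 and 17, or 189 and 30, still above the nominal share. The adjusted p-values of single genes carry the same limit. In the libraries of the study the count with filterByExpr was 414. The 500 became 162 without control 2, 250 without overexpression 1 and 280 without overexpression 3, but 867 without control 1 and 954 without control 3. The split by direction also moved. Upper-quartile scaling gave 194 higher and 422 lower in overexpression, a split of 31.5% and 68.5% in place of 45% and 55%. The direction of most calls turned without control 1, with 472 higher and 395 lower, and without control 2, with 97 higher and 65 lower.

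The class was set from the counts of the 46 Acp and Sfp genes, so their values here are a description. Of the 46, 2 were called with the class in the model (beside 2.85% of all genes) and 0 with genotype alone. These were Sfp24Bc, with 0.0385, 0 and 2.72 CPM in overexpression 1, 2 and 3 and 0 in each control library, and Sfp24Bd, with 0.0771, 0 and 1.57 CPM in overexpression 1, 2 and 3, against 0.0549, 0 and 0 CPM in control 1, 2 and 3. Outside overexpression 3 both were thus at or below 0.0771 CPM. Of the 386 large-difference genes, 6 were called with the class in the model, again beside 2.85%, and 0 with genotype alone, beside 2.81%. These genes were chosen by their difference between the classes, so this too is a description. All 6 were higher in overexpression, and each was highest in overexpression 3. The best covered was lncRNA:CR45250, with 2.69, 1.58 and 17.4 CPM in overexpression 2, 1 and 3, against 5.93, 0.257 and 8.06 CPM in control 1, 2 and 3. Its log2 difference was 1.73 ± 0.34. The median log2 difference between overexpression and control over the 46 Acp and Sfp genes was 1.30 with the class in the model and -0.33 with genotype alone, so its sign turned with the model. It was 0.86 and -0.39 over the 351 other large-difference genes, and 0.04 and 0.01 over the 14258 genes. In both classes the overexpression libraries held higher gland shares than the control libraries. With the class in the model, the sign for the sum of the Acp and Sfp genes was therefore set by the split. Acp26Aa, at 1.33 ± 0.85 with the class and -0.35 without it, was not called under either model.

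**Figure D5:**
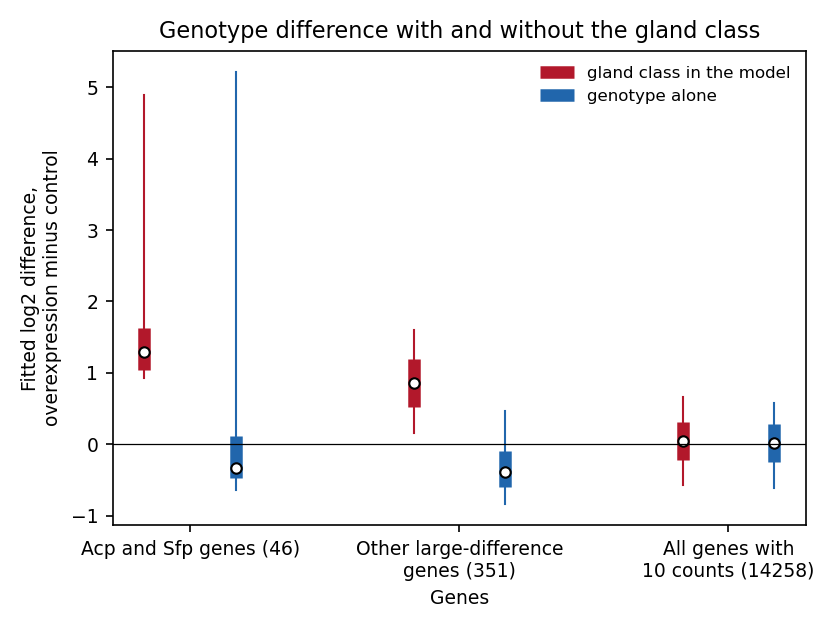
Fitted log2 difference between overexpression and control with the gland class in the model (red) and with genotype alone (blue), as the median (circle), the 25th to 75th percentile (thick bar) and the 10th to 90th percentile (thin line) over genes. The median over the 46 Acp and Sfp genes is 1.30 with the class and -0.33 without it, while over all 14258 genes it is 0.04 and 0.01.

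Among the genes called only with the class in the model, prd rose in overexpression in that fit. It also followed the gland class, with a log2 difference of 1.03 ± 0.19, and its genotype difference without the class was 0.36. It had 33.5, 28.2 and 49.8 CPM in overexpression 1, 2 and 3, against 37.6, 13.9 and 35.3 CPM in control 1, 2 and 3, a log2 difference of 0.79 ± 0.19 (adjusted p = 0.0209 with the class and 0.859 without, edgeR). The genotypes overlapped for prd, and as for CG33290 the gland-rich libraries lay above the gland-poor ones. The genotype difference of either gene cannot be told apart from the unequal gland share within the classes. CG33290 rose as well, with 2.31, 3.87 and 26.9 CPM in overexpression, against 10.3, 1.90 and 10.1 CPM in control, a log2 difference of 1.12 ± 0.23 (adjusted p = 0.00855, edgeR), as did cher, which encodes filamin, at 0.93 ± 0.21 (adjusted p = 0.0168, edgeR). Among those that fell, ord, which holds sister chromatids together in meiosis, had 70.7, 70.1 and 54.2 CPM in overexpression, against 85.9, 103 and 76.4 CPM in control, a log2 difference of -0.57 ± 0.14 (adjusted p = 0.0308, edgeR). The 3 overexpression libraries lay below the 3 control libraries for ord. MFS9, a transporter gene, fell by 0.76 on the log2 scale, CG42822 by 1.32 and CG4970 by 0.59.

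Of the 70 genes called only with genotype alone, the 8 named were the 4 of lowest p in each direction at a mean of at least 5 CPM. dre4, a subunit of the FACT histone chaperone, had 60.8, 47.2 and 40.3 CPM in overexpression, against 30.7, 32.1 and 26.6 CPM in control, with adjusted p = 0.0501 with the class and 0.0264 without (edgeR). Prp6, a splicing factor gene, Zpr1 and nsr had adjusted p = 0.0512, 0.0594 and 0.0519 with the class (edgeR). Among the genes that fell, the myosin light chain gene Mlc2 had 18.2, 22.6 and 26.4 CPM in overexpression, against 76.2, 57.9 and 37.8 CPM in control, a log2 difference of -1.31 ± 0.27 (adjusted p = 0.0517 with the class and 0.0221 without, edgeR). CG30110, CG10936 and lncRNA:CR44955 had adjusted p between 0.0512 and 0.0615 with the class (edgeR). For these 8 genes the fitted difference between genotypes moved by 0.13 or less on the log2 scale.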

How the data were processed

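RNA of 3 miR-2b-1 overexpression and 3 control testis pools was sequenced as paired-end reads. The methods state that the authors cleaned and trimmed these, mapped them by RNA STAR 2.7.8a to an Ensembl BDGP6 annotation (build dm6 in the submitters' processing notes) and counted them with featureCounts. Whether counting used strand, and what was done with multimapping reads, is not given in the sources used here. The authors deposited whole-number counts per gene, which were used as deposited. The authors' own table of fold changes, mean log2 CPM, F and p-values was not used, nor were 6 columns of per-sample values in another table.

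Symbols and coordinates came from Ensembl release 115 of BDGP6, which matched 17253 of 17559 genes. Rows that name no gene numbered 0. All 17559 genes were fitted with edgeR 4.0.16 in R 4.3.3 (TMM, quasi-likelihood test in its older form, robust prior, no filter, genotype and gland class as terms, Benjamini-Hochberg adjusted p under 0.05), with the standard error taken as the log2 difference over the square root of F. The fit was tested on simulated data. Differences within a genotype used log2(CPM + 0.5). Lists and non-overlap counts used genes with at least 10 counts over the 6 libraries. Depth was 18047619 to 27789620 counts, which limits the precision of genes with few counts.

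The members and lists were chosen with earlier results of these data known. The genes named were the 3 markers, the 8 most abundant Acp or Sfp genes, the 4 most abundant of each list, 12 higher and 8 lower genes outside the lists with the largest difference at a mean of at least 10 CPM without overlap, and 4 rising and 4 falling genes of lowest p called in one of the genotype fits alone (mean of at least 5 CPM). Other genes were named after their values were seen. Alternatives were RLE and upper-quartile scaling, DESeq2 1.42.0, filterByExpr, a minimum of 10 counts in every library, the newer form of the test, a non-robust prior, a replicate block, single replicates left out, an adjusted p under 0.01, the log2 gland share as a term, and the table without Acp and Sfp genes.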

Additional observations from a re-analysis of the deposited data

Results flagged for a closer look

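Among the named genes and the 15 genes far highest in overexpression 3, the difference between gland-rich and gland-poor libraries had opposite signs in the genotypes for 5 genes, of at least 1 on the log2 scale of CPM + 0.5 in each, with every overexpression comparison above 0 and every control comparison below 0. Ebp differed by 6.37 within overexpression and by -2.71 within control. EbpII differed by 6.99 and -2.51, Sfp60F by 6.19 and -2.16, Sfp87B by 7.04 and -3.07, and Sfp24Bb by 5.71 and -1.40, overexpression first in each pair. Overexpression has 1 gland-rich library and control has 1 gland-poor library, so each difference rests on a single library on one side, and the difference between the genotypes was not tested.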

How the results depend on the processing

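The gland classes held in all 6 libraries with the wider seminal fluid list, with Acp or Sfp genes alone and without the most abundant member. These shares are parts of the counts that the rule used or contain them all, so nothing is read from the agreement. The number of genes called for the class, 371, was 629 with DESeq2, 188 with at least 10 counts in every library, 617 with a prior that is not robust, 623 with the log2 gland share as the term, and 204 to 602 without single replicates (204 without overexpression 1, 222 without overexpression 3, 602 without control 3), with 425 higher and 74 lower without control 1. The 500 genes called between overexpression and control with the class in the model were 760 with the log2 gland share, 274 at an adjusted p under 0.01 and 162 to 954 without single replicates (162 without control 2, 250 without overexpression 1, 280 without overexpression 3, 867 without control 1, 954 without control 3). The replicate block gave 539 genes for the class (478 higher and 61 lower, 236 shared with the 371) and 918 for the genotype (560 higher and 358 lower, 432 shared with the 500), with 1 residual degree of freedom, and the numbers do not pair the pools, since deviations of same-numbered libraries correlated with r = -0.5745, 0.2863 and 0.5232. The difference in gland share between overexpression and control, -0.113 percentage points, was 0.116 without control 1, 0.0765 without overexpression 1 and 0.0347 without overexpression 2, within a range of -0.451 to 0.116 over all 6 omissions. The 386 large-difference genes, an alternative set chosen after seeing the data, numbered 350 to 440 without single replicates. The number of lists with a median of at least 1, which was 4, was 3 without the Acp and Sfp genes and 4 under every other setting run. Of 219 list medians 193 kept their sign, and the other 26 were of lists with a median under 1. Of 1655 alternative values of named genes for the class, 1477 moved by less than their standard error. Among these 1655, 0 turned the direction of a gene without overlap. The genes named from the genotype fits, other than prd, had 254 alternative values for the genotype. Of these, 156 kept their call or lack of one, 65 became called and 33 lost their call. Depth limits the genes at a few counts in gland-poor libraries. The cause of these changes was not tested.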
